A study of Mus musculus with 12 samples.

Results

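The genes described here encode the ligands, receptors, secreted antagonists, R-spondin system and transcription factors of Wnt signalling. They were selected by gene name alone, as the Wnt and Fzd genes, Sfrp1 to Sfrp5, Dkk1 to Dkk4, Lrp5 and Lrp6, Axin1 and Axin2, Lef1, the Tcf7 genes, the R-spondins, Lgr4 to Lgr6, Wif1, Porcn, Wls, Ror1 and Ror2, Rnf43, Znrf3, Nkd1 and Nkd2. The rule matched 57 of the 29428 genes in the table, and 39 of them were among the 16127 genes that reached 0.5 TPM (transcripts scaled for length and library depth) in 3 or more libraries, which were tested. RNA-seq was performed on STHdhQ7 (STHdhQ7/Q7) and STHdhQ111 (STHdhQ111/Q111) cells, immortal mouse striatal lines from knock-in mice whose huntingtin carries 7 or 111 glutamine repeats. The 4 groups of 3 libraries were nontreated STHdhQ7 cells (Q7-C), STHdhQ7 cells given LPS at 5 μg/mL plus murine IFNγ at 100 ng/mL over 24 h (Q7-T), nontreated STHdhQ111 cells (Q111-C) and STHdhQ111 cells given the same treatment (Q111-T). All cells were kept in the same serum-containing medium. Each genotype is a single cell line, so genotype and line cannot be told apart, and IFNγ and LPS were given together, so their effects cannot be told apart either. The study calls the 3 libraries of a group biological replicates, but neither it nor the labels say whether they came from separate cultures. The p-values therefore measure the spread between these libraries.

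Wnt proteins are secreted lipid-modified ligands that bind Frizzled receptors. With the co-receptors LRP5 or LRP6 they stabilise β-catenin, which acts with TCF/LEF factors on target genes, and through ROR receptors they act on cell polarity and movement without β-catenin. Secreted Frizzled-related and Dickkopf proteins limit the signal, whereas R-spondins bound to LGR receptors keep Frizzled receptors at the cell surface by holding off the ubiquitin ligases RNF43 and ZNRF3. In the developing striatum Wnt signals take part in patterning and neuronal differentiation.

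The promoters of 4 genes are shown as examples. Wnt10b and Wnt6 were among those that differed most between the lines, and Wnt9a and Fzd7 rose on treatment in STHdhQ111 cells. Several Wnt genes not shown, among them Wnt4 and Sfrp1, changed more on that treatment than Fzd7. Each sequence is the 250 bases before the RefSeq gene start (GRCm38.p6), 5′ to 3′ on the gene's strand, and capitals mark matches to the NF-kB motif.
Wnt10b (chr15:98778151-98778400, minus strand): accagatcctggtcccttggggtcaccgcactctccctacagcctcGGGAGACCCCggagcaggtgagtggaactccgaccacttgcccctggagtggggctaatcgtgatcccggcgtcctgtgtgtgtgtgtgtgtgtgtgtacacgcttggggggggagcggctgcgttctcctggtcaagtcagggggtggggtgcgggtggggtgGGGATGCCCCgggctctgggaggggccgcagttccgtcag
Wnt6 (chr1:74771642-74771891, plus strand): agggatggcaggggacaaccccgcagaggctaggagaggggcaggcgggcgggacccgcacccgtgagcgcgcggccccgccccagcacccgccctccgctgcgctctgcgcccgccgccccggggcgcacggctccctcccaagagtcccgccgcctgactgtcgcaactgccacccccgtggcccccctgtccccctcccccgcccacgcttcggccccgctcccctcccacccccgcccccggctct
Wnt9a (chr11:59306680-59306929, plus strand): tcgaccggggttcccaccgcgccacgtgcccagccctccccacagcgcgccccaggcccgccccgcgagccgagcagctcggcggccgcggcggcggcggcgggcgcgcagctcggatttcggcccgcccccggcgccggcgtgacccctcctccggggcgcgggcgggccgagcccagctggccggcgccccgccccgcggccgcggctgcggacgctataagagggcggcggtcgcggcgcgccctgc
Fzd7 (chr1:59481897-59482146, plus strand): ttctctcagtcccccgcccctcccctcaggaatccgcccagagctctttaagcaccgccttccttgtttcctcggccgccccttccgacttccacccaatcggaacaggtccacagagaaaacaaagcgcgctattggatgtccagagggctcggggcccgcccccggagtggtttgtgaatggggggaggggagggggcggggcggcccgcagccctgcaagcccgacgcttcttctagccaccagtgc
The promoters had 14 (Wnt10b), 28 (Wnt6), 48 (Wnt9a) and 17 (Fzd7) CpG dinucleotides. Windows of the same 250 bases matched 38 of the 57 Wnt genes in 47 windows, with a median of 16 CpG, against 6 over all 32851 windows. On both strands of these windows, the IFNγ-activated GAS motif (TTCNNNGAA) was in 7.02% of all windows and, among Wnt genes, in Wnt5b. The interferon-stimulated response element (GAAANNGAAA) was in 2.98% of all windows and in that of Wls. The NF-kB motif was in 3.9% of all windows and in that of Wnt10b, with matches starting 204 and 40 bases before the gene start. The TCF/LEF motif (CTTTGA) was in 13.83% of all windows and in those of Dkk1, Fzd1, Lef1, Ror1, Wnt11 and Wnt5b. A match describes letters in a window, not binding.

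The libraries held between 57505990 and 96417834 estimated counts. Q7-T replicate 2 and Q7-C replicate 1 lay farthest from their groups, and they were the lowest of their 3 libraries for 28 and 26 of the 39 Wnt genes tested. Q111-T replicate 2 was the lowest of its group for 27 of them and Q111-C replicate 1 for 22. Against the labelled neuronal cell type, Snap25, Syt1 and Dcx were at or near 0 in all libraries, and 5 of the 8 neuronal markers found were under 0.5 TPM throughout. The neuronal markers summed to between 94.6 and 104 TPM in Q7-C and between 132 and 168 in Q7-T, against 9.91 to 13.8 in Q111-C and 31.1 to 35.0 in Q111-T, mostly as Stmn2 and Tubb3 in STHdhQ7 cells and as Map2, Tubb3 and Stmn2 in Q111-C. Of the 7 striatal projection neuron markers found, 5 or more were under 0.5 TPM in every library of each group. These 7 markers summed to 0.58 to 1.07 TPM in Q7-C and 0.43 to 0.89 in Q7-T. In STHdhQ111 cells the sums were 5.47 to 7.31 TPM in Q111-C and 2.67 to 3.06 in Q111-T. Mean Penk was 0.143 TPM in Q7-C and 4.93 in Q111-C, and mean Ppp1r1b was 0.303 and 1.12. The 11 mesenchymal markers summed to between 4478 and 5274 TPM in Q7-C and between 3434 and 3980 in Q7-T, against 4408 to 4635 in Q111-C and 1807 to 2139 in Q111-T. Vim was the highest of them in each group, and the others went in opposite directions: the mean TPM of Acta2 was 1670 in Q7-C and 43.7 in Q111-C and that of Tagln 80.7 and 2.38, whereas Col1a1 was at 265 and 791, Col1a2 at 14.6 and 250.2 and Fn1 at 221 and 646. The 4 neural progenitor markers found, mostly Nes and Sox2, summed to between 76.5 and 128 TPM in Q7-C and between 36.6 and 106 in Q7-T, against 11.3 to 13.9 in Q111-C and 9.63 to 14.5 in Q111-T. The 7 astrocyte markers, mostly Gja1, ran the other way, at 21 to 39.1 TPM in Q7-C and 15.6 to 41.7 in Q7-T, against 74.0 to 89.2 in Q111-C and 70.0 to 84.3 in Q111-T, while Gfap and Aqp4 were under 0.5 TPM in all libraries. The oligodendrocyte markers summed to 5.73 to 9.96 TPM in STHdhQ7 and 12 to 14.6 in STHdhQ111 cells, and the endothelial markers to at most 1.65 TPM. The macrophage or microglia markers summed to between 17.8 and 20.6, 11.9 and 18.2, 31.9 and 37.0, and 46.0 and 62.5 TPM in the same order, nearly all of it Tmem119 (means of 12.3, 3.14, 18.7 and 5.13 TPM) and Cd68 (7.09, 11.7, 15.2 and 48.8), while Ptprc, Itgam and P2ry12 were at or near 0. The part of these differences in the Wnt results was not tested. In bulk RNA, fewer cells that express a gene and less RNA per cell cannot be told apart.

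The first comparison asked how the nontreated lines differ. Wnt10a, Wnt10b and Wnt6, ligands that act mainly through β-catenin, were each below 1 TPM in every Q7-C library and among the leading ligands in Q111-C, while Wnt4 and Wnt7a were present in Q7-C and near or below the detection limit in Q111-C. The summed TPM of the 16 ligands was 24.4 ± 0.92 (SD, n = 3) in nontreated and 15.0 ± 1.88 in treated STHdhQ7 cells, against 135.0 ± 8.30 and 99.8 ± 7.40 in STHdhQ111 cells. Wnt10a and Wnt10b together made up 3.76%, 3.82%, 83.6% and 54.0% of it in Q7-C, Q7-T, Q111-C and Q111-T. The summed TPM of the 9 Frizzled receptors was 139 ± 21.4 in Q7-C and 124 ± 10.1 in Q111-C (SD, n = 3 each), a difference smaller than the SD in Q7-C. These sums depend on the scale, since the median gene lay 0.27 higher in Q111-C on log2(TPM + 0.5). In the edgeR fit below, all Frizzled genes but Fzd8 had log2 fold changes under 0, from -0.24 (Fzd6) to -1.52 (Fzd3).

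**Figure D1:**
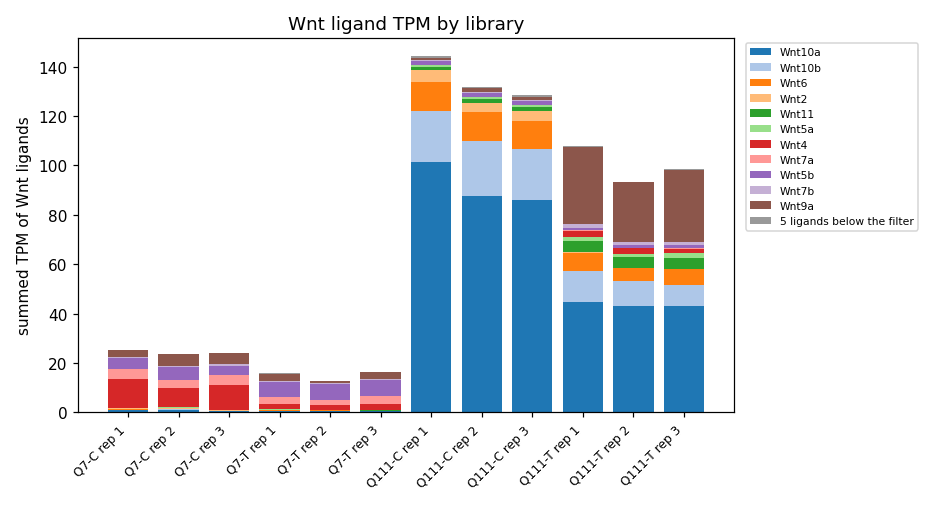
Summed TPM of the 16 Wnt ligands in each of the 12 libraries, stacked by gene with no error bars. The Q111-C bars consist mostly of Wnt10a and Wnt10b, Wnt9a is a large part of Q111-T, and all 6 STHdhQ7 bars are lower than every STHdhQ111 bar.

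Of the 39 Wnt genes tested, 12 were higher and 11 lower in Q111-C than in Q7-C (edgeR adjusted p under 0.05 and at least 2-fold). Over all genes tested, 7.62% were higher and 7.61% lower. The median log2 fold change was -0.54 over the Wnt genes and -0.02 over all genes, and the median absolute log2 fold change was 1.68 and 0.42. These counts cannot be read as a share of all 57 genes, since 8 tested genes were under 0.5 TPM in all 6 STHdhQ7 libraries and 3 in all 6 STHdhQ111 libraries and so passed the filter only through the other line. All 11 ligands tested were called, 6 higher and 5 lower. Of these, Wnt10b, Wnt11, Wnt2, Wnt5a, Wnt6 and Wnt7a passed the filter only through the line in which they were higher. The remaining ligands of the 16 matched were below it and not tested.

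Wnt10a was at 0.829, 0.977 and 0.574 TPM in Q7-C and 0.499, 0.603 and 0.332 in Q7-T, against 101, 87.6 and 86.0 in Q111-C and 44.8, 43.0 and 43.1 in Q111-T. Wnt10b, which is known to promote bone formation and hold back fat cell differentiation, was at 0.0844, 0.174 and 0.108 TPM in Q7-C and 0.0678, 0.0909 and 0.126 in Q7-T, against 20.8, 22.1 and 20.6 in Q111-C and 12.5, 9.98 and 8.37 in Q111-T. Every STHdhQ111 library was far above every STHdhQ7 library for both genes. Between nontreated lines, the log2 fold change of Wnt10a was 6.51 ± 0.40 (standard error; edgeR adjusted p = 7.97e-07) and that of Wnt10b 7.09 ± 0.33 (edgeR adjusted p = 1.26e-07). Wnt6 was at 0.233, 0.123 and 0 TPM in Q7-C and 0.225, 0.047 and 0.0537 in Q7-T, against 11.8, 11.9 and 11.3 in Q111-C and 7.19, 5.37 and 6.5 in Q111-T. Its groups were likewise separate, with a log2 fold change of 6.13 ± 0.90 (edgeR adjusted p = 0.00044). Wnt6 and Wnt10a are neighbours on chromosome 1, 6.2 kb apart on the same strand (GRCm38). Wnt10b lies 11.7 kb from Wnt1 on chromosome 15, and Wnt1 stayed at or below 0.12 TPM in all 12 libraries.

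Wnt2 was at 0.403, 0.296 and 0.285 TPM in Q7-C and 0, 0 and 0.103 in Q7-T, against 4.76, 3.87 and 3.89 in Q111-C and 0.595, 0.16 and 0.126 in Q111-T. Q111-C alone was above 1 TPM, and its log2 fold change over Q7-C was 3.27 ± 0.87 (edgeR adjusted p = 0.0175), a call that was lost without Q7-C replicate 2 or replicate 3 (adjusted p up to 0.0655). Wnt11, a ligand of the β-catenin-independent branch, was at 0.0741, 0.0651 and 0 TPM in Q7-C and 0, 0.166 and 0.19 in Q7-T, against 1.26, 1.38 and 1.65 in Q111-C and 4.16, 4.20 and 4.55 in Q111-T. It was not detected in Q7-C (at or under 12 estimated counts in each library, taken as 3 read pairs) and was at least 17.7-fold higher in Q111-C (edgeR adjusted p = 0.0114). Wnt5a, the main ligand of ROR receptors, was at 0.125, 0.308 and 0.14 TPM in Q7-C and 0.34, 0.0959 and 0.287 in Q7-T, against 0.65, 0.725 and 0.942 in Q111-C and 1.75, 1.34 and 1.91 in Q111-T. All STHdhQ111 libraries were above all STHdhQ7 libraries, with a log2 fold change of 1.73 ± 0.37 in Q111-C vs. Q7-C (edgeR adjusted p = 0.00539).

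The 5 ligands that were lower in Q111-C included Wnt4, which is known from kidney and gonad development. Wnt4 was at 11.8, 7.79 and 9.74 TPM in Q7-C and 2.12, 2.11 and 2.46 in Q7-T, against 0.112, 0.15 and 0 in Q111-C and 2.35, 2.67 and 1.77 in Q111-T. It was highest in Q7-C and close to 0 in Q111-C, with a log2 fold change of -7.17 ± 0.82 (edgeR adjusted p = 6.82e-05). Wnt7a, a ligand of neural and vascular development, was at 3.88, 3.29 and 4.41 TPM in Q7-C and 2.95, 1.90 and 3.11 in Q7-T, against 0.10, 0.0899 and 0.0981 in Q111-C and 0.266, 0 and 0.113 in Q111-T. It was not detected in Q111-C and was at least 39.8-fold lower there (edgeR adjusted p = 0.000361). Wnt5b was at 4.61, 5.21 and 3.68 TPM in Q7-C and 6.14, 6.64 and 6.49 in Q7-T, against 1.62, 1.62 and 1.57 in Q111-C and 1.17, 0.816 and 1.23 in Q111-T. All STHdhQ7 libraries were above all STHdhQ111 libraries, and the log2 fold change in nontreated cells was -1.83 ± 0.29 (edgeR adjusted p = 0.000682). Wnt7b was at 0.564, 0.637 and 0.762 TPM in Q7-C and 0.306, 0.226 and 0.182 in Q111-C, and Wnt9a at 2.80, 4.57 and 4.25 TPM in Q7-C and 0.815, 1.59 and 1.54 in Q111-C. Neither pair of groups overlapped, and the log2 fold changes were -1.76 ± 0.39 for Wnt7b (edgeR adjusted p = 0.00642) and -1.85 ± 0.31 for Wnt9a (edgeR adjusted p = 0.00115).

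**Figure D2:**
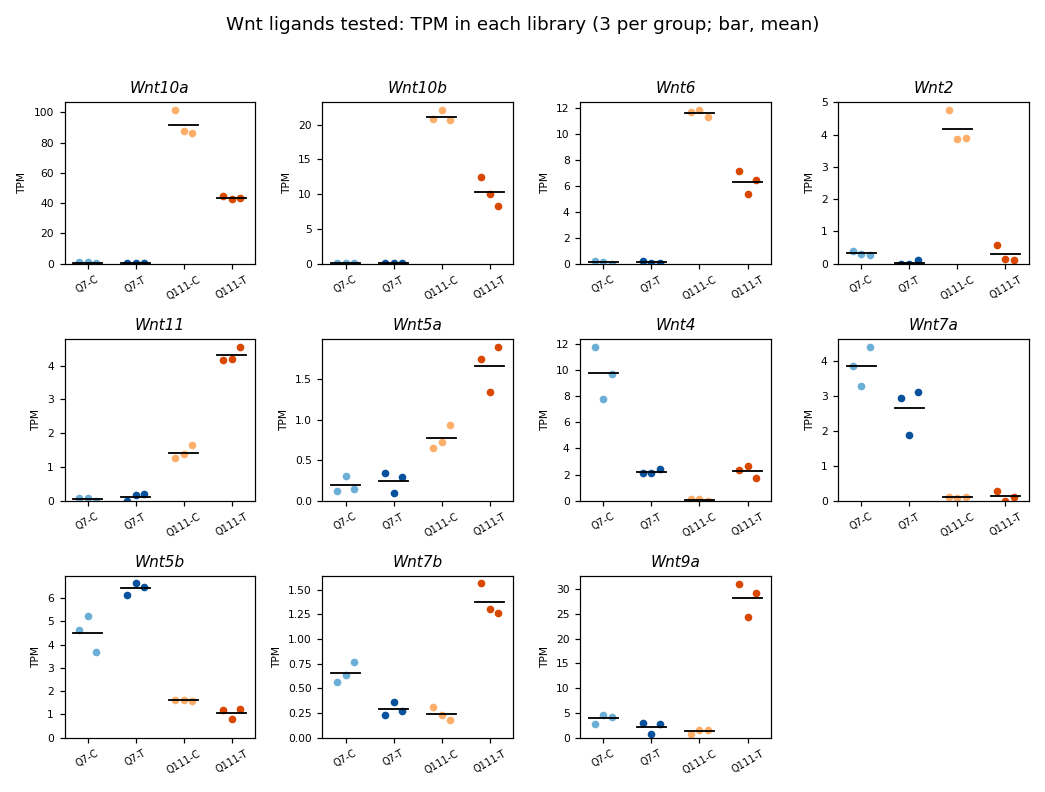
TPM of the 11 Wnt ligands tested, 1 panel per gene on a linear axis from 0, with 1 point per library and a bar at the mean of each group of 3. Wnt10a, Wnt10b and Wnt6 are low on the scale of their panels in both STHdhQ7 groups, Wnt4 and Wnt7a are near 0 in Q111-C, and Wnt9a stands out in Q111-T.

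The 2 genes of ligand secretion differed in opposite directions between the lines. Porcn, the acyltransferase that attaches the lipid to Wnt proteins, was at 12.7, 11 and 9.31 TPM in Q7-C and 8.87, 6.83 and 10.4 in Q7-T, against 2.32, 1.71 and 1.53 in Q111-C and 1.75, 1.96 and 1.49 in Q111-T. Wls, which carries Wnt proteins to the cell surface, was at 17.7, 30.6 and 32.4 TPM in Q7-C and 30.2, 11.4 and 22.9 in Q7-T, against 62.9, 77.3 and 73.6 in Q111-C and 57.6, 52.3 and 58.8 in Q111-T. The lines were separate for both genes in all 12 libraries. In nontreated cells the log2 fold change was -2.92 ± 0.30 for Porcn (edgeR adjusted p = 3.04e-05) and 1.12 ± 0.18 for Wls (edgeR adjusted p = 0.000687).

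Of the 9 Frizzled receptors, 1 was higher, 1 was lower and 7 were not called in Q111-C vs. Q7-C. Fzd8 was at 1.28, 2.06 and 1.5 TPM in Q7-C and 1.49, 0.493 and 0.929 in Q7-T, against 6.08, 7.36 and 6.82 in Q111-C and 2.86, 1.79 and 2.51 in Q111-T. Q111-C was the highest group, with a log2 fold change of 1.75 ± 0.25 over Q7-C (edgeR adjusted p = 0.000306). Fzd3, a receptor of axon guidance, was at 1.39, 3.26 and 3.59 TPM in Q7-C and 1.91, 0.63 and 1.83 in Q7-T, against 1.14, 1.21 and 1.08 in Q111-C and 0.974, 0.715 and 0.955 in Q111-T. It was lower in Q111-C (log2 fold change -1.52 ± 0.27, edgeR adjusted p = 0.00172), although Q7-C replicate 1 was close to the Q111-C libraries, and the limma fits on TPM did not make the call. The most abundant receptor in nontreated cells, Fzd2, was at 56.6, 52.8 and 55.4 TPM in Q7-C and 44.7, 48.5 and 42.7 in Q111-C, a log2 fold change of -0.62 ± 0.21 that was not called (edgeR adjusted p = 0.0554). Fzd1, Fzd4, Fzd6 and Fzd9 were not called in any comparison.

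Among the 4 co-receptors, Ror2 was called in nontreated cells. Ror2, a receptor tyrosine kinase for WNT5A, was at 2.41, 4.42 and 4.67 TPM in Q7-C and 3.23, 0.865 and 3.42 in Q7-T, against 10.2, 11.2 and 11.2 in Q111-C and 6.65, 3.62 and 7.06 in Q111-T. The log2 fold change was 1.22 ± 0.31 (edgeR adjusted p = 0.0138), and without Q7-C replicate 1 the call was lost (adjusted p = 0.0523). Lrp6 was at 5.15, 7.64 and 10.8 TPM in Q7-C and 14.5, 16.7 and 16.9 in Q111-C. Its log2 fold change of 0.75 ± 0.20 had an edgeR adjusted p of 0.0206 but was under 2-fold. Lrp5 and Ror1 were not called in any comparison.

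Of the 4 secreted antagonists tested, 3 were lower in Q111-C. Sfrp1, which binds Wnt proteins outside the cell, was at 1.29, 2.27 and 2.22 TPM in Q7-C and 11.7, 7.29 and 11.6 in Q7-T, against 0.248, 0.246 and 0.213 in Q111-C and 3.59, 2.75 and 2.45 in Q111-T. Each STHdhQ111 group was below the STHdhQ7 group of the same treatment, with a log2 fold change of -3.30 ± 0.21 in nontreated cells (edgeR adjusted p = 9.32e-07). Dkk2, a ligand of LRP5 and LRP6, was at 0.592, 0.555 and 1.38 TPM in Q7-C, 0.299, 0.399 and 0.126 in Q7-T and at 0 in all 6 STHdhQ111 libraries, and was at least 9.90-fold lower in Q111-C (edgeR adjusted p = 0.000834). Sfrp4 was at 0.524, 0.897 and 0.827 TPM in Q7-C and 0.149, 0.145 and 0.167 in Q7-T, against 0.061, 0.0813 and 0.0374 in Q111-C and 0, 0.0543 and 0 in Q111-T. It was not detected in either STHdhQ111 group and was at least 10.1-fold lower in Q111-C (edgeR adjusted p = 0.00853). With limma on log2(TPM + 1), Dkk2 (-0.85) and Sfrp4 (-0.72) were under 2-fold. Dkk3 was at 0.181, 0.47 and 0.188 TPM in Q7-C and 0.795, 1.35 and 1.2 in Q111-C, and was not called (log2 fold change 1.68 ± 1.06, edgeR adjusted p = 0.314), although the groups did not overlap and it was called higher with limma on log2(TPM + 0.1) and log2(TPM + 0.5) and with only the groups compared.

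In the R-spondin system, 3 of the 5 genes tested were higher in Q111-C. Rspo2 was at 0.181, 0.041 and 0.179 TPM in Q7-C and 0.0723, 0.0605 and 0.101 in Q7-T, against 3.01, 3.75 and 3.46 in Q111-C and 2.11, 1.32 and 2.21 in Q111-T. Rspo3 was at 0, 0.0698 and 0 TPM in Q7-C and 0.0369, 0.165 and 0.0254 in Q7-T, against 1.22, 1.95 and 2.22 in Q111-C and 4.42, 3.54 and 5.32 in Q111-T. Both R-spondins were above 1 TPM in every STHdhQ111 library and below 0.5 TPM in every STHdhQ7 library. The log2 fold change of Rspo2 was 4.27 ± 0.51 (edgeR adjusted p = 9.61e-05), and Rspo3, not detected in Q7-C, was at least 16.5-fold higher in Q111-C (edgeR adjusted p = 0.00214). Lgr6, an R-spondin receptor, was at 1.76, 2.69 and 2.74 TPM in Q7-C and 0.252, 0.344 and 0.298 in Q7-T, against 13.3, 13.7 and 14.0 in Q111-C and 7.46, 5.29 and 6.98 in Q111-T. The lines did not overlap, and the log2 fold change in nontreated cells was 2.21 ± 0.25 (edgeR adjusted p = 6.15e-05). Lgr4 was not called between nontreated lines (log2 fold change -0.74 ± 0.24, edgeR adjusted p = 0.0428, under 2-fold), and Znrf3 was not called in any comparison.

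Tcf7, one of the TCF/LEF factors that act with β-catenin, was at 24.3, 34.9 and 39.9 TPM in Q7-C and 17.1, 5.13 and 16.2 in Q7-T, against 10.3, 16.9 and 13.8 in Q111-C and 6.91, 2.63 and 6.67 in Q111-T. It was lower in Q111-C by a log2 fold change of -1.57 ± 0.33 (edgeR adjusted p = 0.00458). Tcf7l2 was at 3.73, 4.57 and 5.15 TPM in Q7-C and 3.08, 2.52 and 3.04 in Q7-T, against 2.54, 3.18 and 2.72 in Q111-C and 1.58, 1.58 and 1.74 in Q111-T. Its log2 fold change of -0.98 ± 0.17 in nontreated cells fell just short of 2-fold (edgeR adjusted p = 0.00124) and was called without Q111-C replicate 2. Tcf7l1 was at 12.8, 14.2 and 14.3 TPM in Q7-C and 18.3, 19.7 and 18.4 in Q111-C, and Axin1, a scaffold of the complex that degrades β-catenin, spanned 37.4 to 63.9 and 41.3 to 47.7 TPM. Neither was called between nontreated lines. The limma fits on TPM made none of the Tcf7 or Tcf7l2 calls in this or the later comparisons, and those with a pseudocount of 0.5 or 1 did not call Wnt5a or Wnt7b in nontreated cells.

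**Figure D3:**
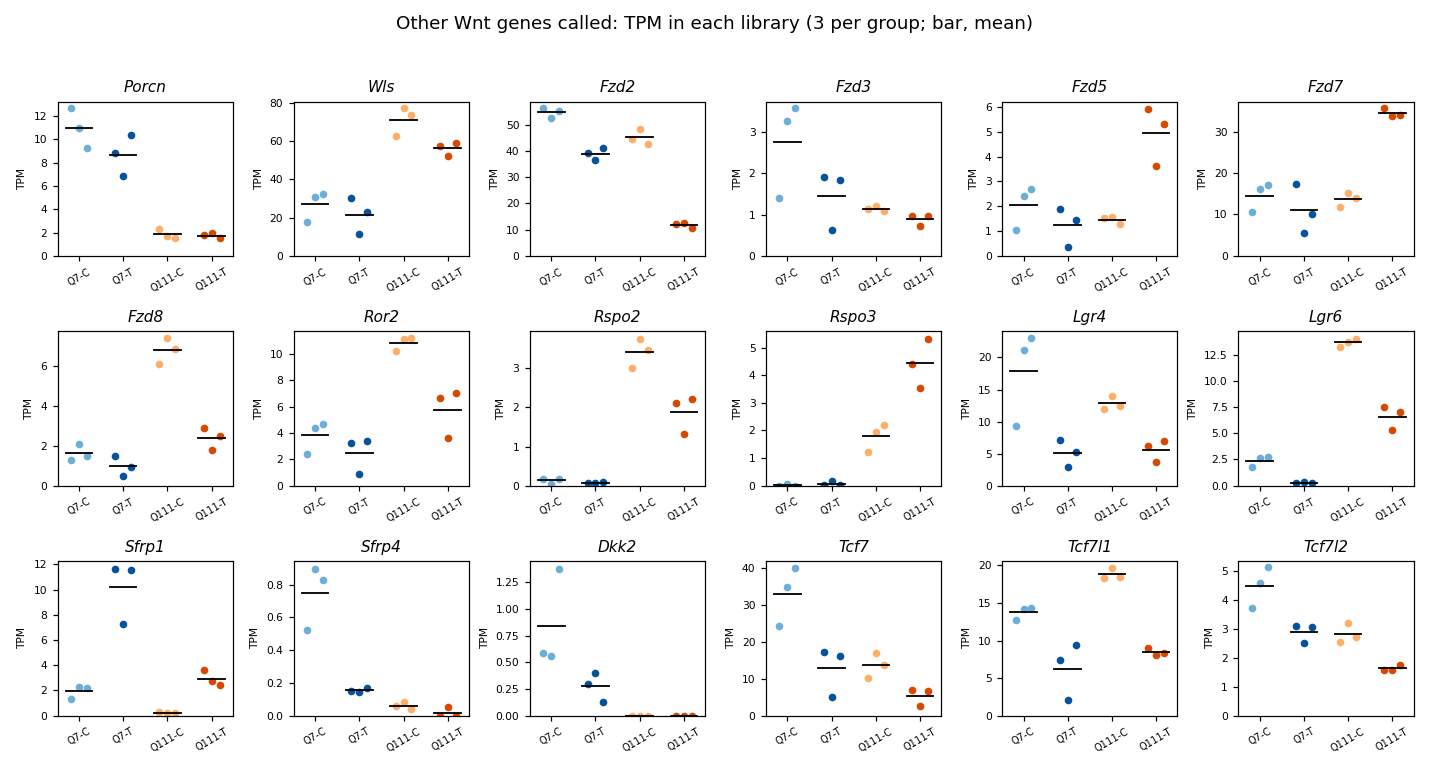
TPM of the 18 other Wnt genes called in at least 1 test, 1 panel per gene on a linear axis from 0, with 1 point per library and a bar at the mean of each group of 3. Dkk2 is at 0 in all 6 STHdhQ111 libraries, Rspo2, Rspo3 and Lgr6 are higher in STHdhQ111 cells, and Sfrp1 is higher in each treated group than in its nontreated group.

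The comparison of the treated lines, Q111-T vs. Q7-T, gave 13 Wnt genes higher and 10 lower, against 13.3% and 11.2% of all genes tested. The filter limits these counts too. Wnt10b, Wnt11, Wnt5a, Wnt6, Rspo2 and Rspo3 among the higher genes passed it only through STHdhQ111 libraries. Dkk2, Sfrp4 and Wnt7a among the lower genes passed it only through STHdhQ7 libraries. The median log2 fold change was 0.32 over the Wnt genes and -0.03 over all genes. Of the ligands, 7 were higher, 2 were lower and 2 were not called. The log2 fold changes of Wnt10a (6.03 ± 0.40), Wnt10b (6.25 ± 0.32), Wnt6 (5.47 ± 0.89), Wnt11 (4.6 ± 1.07) and Wnt5a (2.47 ± 0.38) had edgeR adjusted p between 2.85e-07 and 0.00592. Wnt9a and Wnt7b were the 2 ligands lower in Q111-C vs. Q7-C and higher in Q111-T vs. Q7-T. Wnt9a was at 2.99, 0.782 and 2.81 TPM in Q7-T and 31.1, 24.3 and 29.2 in Q111-T (log2 fold change 3.39 ± 0.33, edgeR adjusted p = 1.66e-05), and Wnt7b at 0.23, 0.358 and 0.267 in Q7-T and 1.56, 1.31 and 1.26 in Q111-T (1.76 ± 0.39, edgeR adjusted p = 0.00434; 0.89, under 2-fold, with limma on log2(TPM + 1)). Lower were Wnt5b (-3.05 ± 0.30, edgeR adjusted p = 1.91e-05) and Wnt7a (-4.79 ± 0.78, edgeR adjusted p = 0.000621). The treated lines overlapped in Wnt4 and the difference was not called (-0.40 ± 0.61, edgeR adjusted p = 0.627). Wnt2, not detected in Q7-T, was above it in every Q111-T library but was not called (edgeR adjusted p = 0.0544), whereas DESeq2, limma on log2(TPM + 0.1), a minimum of 1 TPM and the fits without Q7-T replicate 3 or Q111-T replicate 3 called it higher.

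Among the Frizzled receptors, Fzd5 and Fzd7 were higher and Fzd2 and Fzd3 lower in Q111-T than in Q7-T. Fzd2, at 39.4, 36.5 and 41.2 TPM in Q7-T and 12.2, 12.7 and 10.8 in Q111-T, had a log2 fold change of -2.14 ± 0.22 (edgeR adjusted p = 2.48e-05). The Fzd3 groups overlapped in TPM (log2 fold change -1.04 ± 0.27, edgeR adjusted p = 0.011), and the call was lost without Q7-T replicate 1, Q7-T replicate 3 or Q111-T replicate 2 and in all 3 limma fits on TPM (-0.34 to -0.54). Fzd8 did not overlap but was under 2-fold (0.96 ± 0.24, edgeR adjusted p = 0.00915), and was called higher with limma on log2(TPM + 0.1) and log2(TPM + 0.5) and without Q7-T replicate 1 or Q111-T replicate 2. Porcn (-2.70 ± 0.30) and Wls (1.06 ± 0.18) kept their directions, with edgeR adjusted p of 4.09e-05 and 0.000731, although Wls came to 0.91, under 2-fold, without Q7-T replicate 2. Lgr6 (3.97 ± 0.27), Rspo2 (4.14 ± 0.52) and Rspo3 (5.20 ± 1.02) were higher, with edgeR adjusted p between 1.44e-06 and 0.0021. Sfrp1 was lower (-2.18 ± 0.19, edgeR adjusted p = 9.36e-06), Dkk2 at least 3.30-fold lower (edgeR adjusted p = 0.00138) and Sfrp4 at least 2.05-fold lower (edgeR adjusted p = 0.0196). The Sfrp4 call was lost without Q111-T replicate 1 or replicate 3 and with only the groups compared, and limma on log2(TPM + 0.5) and log2(TPM + 1) called neither Dkk2 (limma adjusted p = 0.0526 and 0.137) nor Sfrp4 (0.11 and 0.272). Tcf7 (-1.58 ± 0.33, edgeR adjusted p = 0.00318, groups overlapping in TPM) and Tcf7l2 (-1.23 ± 0.17, edgeR adjusted p = 0.000196) were lower. Axin1 (-0.855 ± 0.18, edgeR adjusted p = 0.0036, groups overlapping in TPM) was under 2-fold, and was called lower without Q7-T replicate 2. No co-receptor was called in this comparison (1 of 4 at an unadjusted edgeR p under 0.05, 0 by DESeq2), although Ror2 was called higher with limma on log2(TPM + 0.5) and log2(TPM + 1) and by edgeR without Q7-T replicate 1, Q7-T replicate 3 or Q111-T replicate 2.

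**Figure D4:**
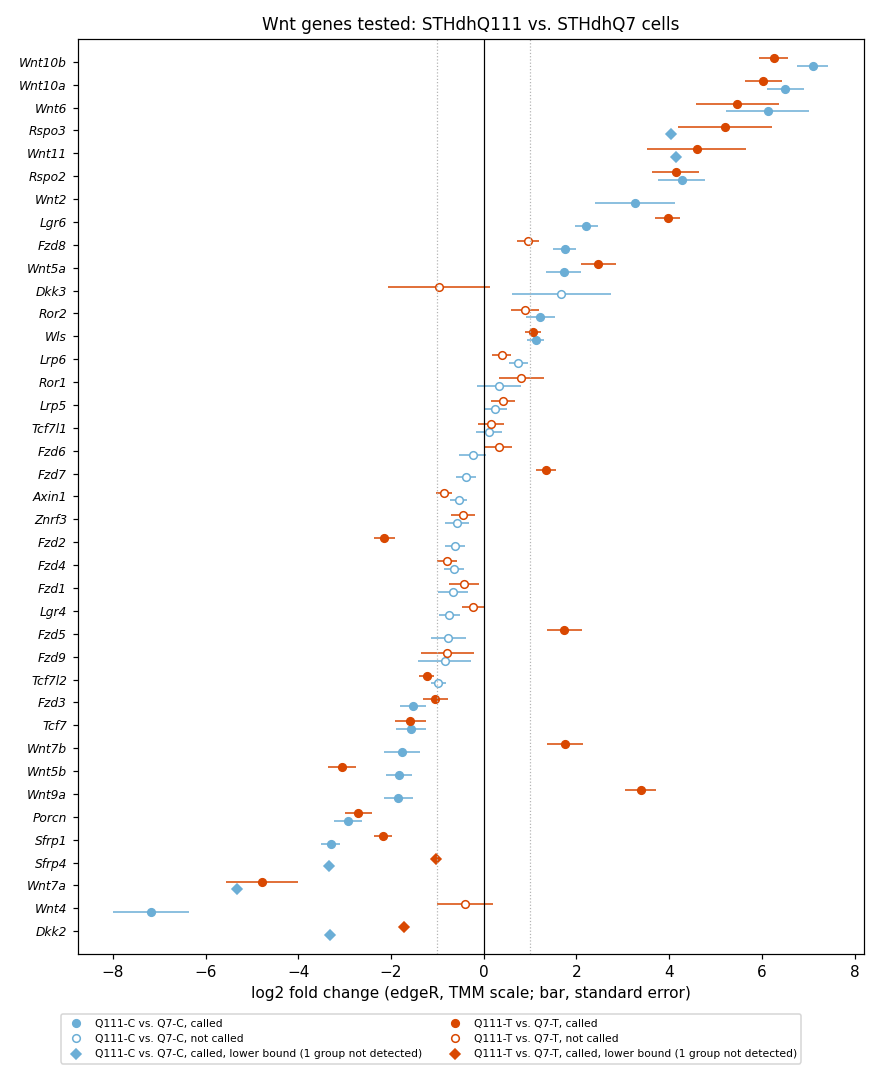
Log2 fold change of STHdhQ111 over STHdhQ7 cells for the Wnt genes tested, nontreated (blue) and treated (orange), with the standard error as a bar. Filled points were called, open points were not, diamonds are lower bounds for called genes that 1 group lacks, and an uncalled gene that 1 group lacks has no point. Wnt9a and Wnt7b lie below 0 in nontreated and above 0 in treated cells.

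In STHdhQ7 cells, treatment changed 4 of the 39 Wnt genes. Sfrp1 rose, by a log2 fold change of 2.60 ± 0.20 (edgeR adjusted p = 6.05e-06). Lgr6 (-2.72 ± 0.26, edgeR adjusted p = 4.45e-05), Lgr4 (-1.61 ± 0.24, edgeR adjusted p = 0.00151) and Tcf7 (-1.26 ± 0.33, edgeR adjusted p = 0.0477) fell. Lgr4, the R-spondin receptor that was at 9.34, 21.2 and 23.1 TPM in Q7-C and 7.2, 2.98 and 5.30 in Q7-T, did not overlap between these groups. The Tcf7 call was lost in 11 of the 12 fits that each leave out 1 library, with an adjusted p of up to 0.138. Over all genes tested 2.93% rose and 1.11% fell, and the median log2 fold change was -0.53 over the Wnt genes and 0.00 (0.003) over all genes. The lowest library for most Wnt genes, Q7-T replicate 2, is in this comparison, and without it 1 gene rose and 4 fell: Lgr4 and Lgr6 were kept, Tcf7 was lost and Dkk3 and Wnt7b were added. No ligand was called (5 of 11 at an unadjusted edgeR p under 0.05, and Wnt2 and Wnt4 by DESeq2). Wnt4 had means of 9.77 TPM in Q7-C and 2.23 in Q7-T with no overlap, but the log2 fold change of -1.96 ± 0.63 missed the threshold (edgeR adjusted p = 0.122), while all 3 limma fits on TPM called it lower. Nor was any Frizzled receptor called (4 of 9 at an unadjusted edgeR p under 0.05, 0 by DESeq2), although Fzd6 was called lower without Q7-T replicate 1. Sfrp4 was called lower by DESeq2, with counts divided by 4, limma on log2(TPM + 0.1), only the groups compared or without Q111-T replicate 2.

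In STHdhQ111 cells, treatment raised 7 and lowered 6 of the 39 Wnt genes, against 8.28% and 2.96% of all genes tested. The median log2 fold change was -0.49 over the Wnt genes and -0.01 (-0.005) over all genes. Among the ligands, Wnt9a rose from 0.815, 1.59 and 1.54 TPM in Q111-C to 31.1, 24.3 and 29.2 in Q111-T, a log2 fold change of 4.51 ± 0.35 (edgeR adjusted p = 3.92e-06). Wnt3a, its neighbour 16.2 kb away on chromosome 11 and a ligand of the β-catenin branch, was at 0.179 TPM in Q111-T replicate 1 and at 0 in the other 11 libraries. Wnt4 rose by 4.81 ± 0.75 on the log2 scale (edgeR adjusted p = 0.000853), Wnt7b by 2.62 ± 0.40 (edgeR adjusted p = 0.000713) and Wnt5a by 1.19 ± 0.36 (edgeR adjusted p = 0.0399). Wnt4 was at most 0.15 TPM in Q111-C, and its rise, called in every fit, came to as little as 1.58 in the alternatives. The Wnt5a call was lost when any 1 of the 6 STHdhQ111 libraries was left out. Wnt2 was the 1 ligand that fell, with a log2 fold change of -3.72 ± 0.89 (edgeR adjusted p = 0.0119, and 0.0515 without Q111-T replicate 2). Wnt10a (-0.97 ± 0.32, edgeR adjusted p = 0.0553) and Wnt10b (-0.93 ± 0.25, edgeR adjusted p = 0.02) did not pass both thresholds, although no Q111-T library of either gene reached the Q111-C range. Wnt10a was called lower in all 3 limma fits on TPM, and Wnt10b in those on log2(TPM + 0.1) and log2(TPM + 0.5) and by edgeR without Q111-T replicate 1 or replicate 2. Without Q111-T replicate 2, the lowest library for most Wnt genes in its group, 6 genes rose and 5 fell, with Wnt5a, Wnt2, Lgr4 and Tcf7l1 lost and Sfrp4 and Wnt10b added as lower.

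The Frizzled receptors divided on treatment of STHdhQ111 cells. Fzd7 was at 10.5, 16.1 and 17 TPM in Q7-C and 17.4, 5.40 and 10.2 in Q7-T, against 11.8, 15.2 and 14.0 in Q111-C and 35.8, 33.9 and 34.0 in Q111-T. Fzd5 was at 1.06, 2.41 and 2.70 TPM in Q7-C and 1.90, 0.347 and 1.43 in Q7-T, against 1.51, 1.56 and 1.29 in Q111-C and 5.94, 3.63 and 5.33 in Q111-T. Q111-T was above every other library for both genes, and they rose by 1.45 ± 0.22 (Fzd7, edgeR adjusted p = 0.000691) and 1.86 ± 0.38 (Fzd5, edgeR adjusted p = 0.00488) on the log2 scale. Fzd2 (-1.82 ± 0.22, edgeR adjusted p = 0.000121) and Fzd8 (-1.41 ± 0.24, edgeR adjusted p = 0.00162) fell. Fzd7 was thus at a higher TPM than Fzd2 in every Q111-T library, whereas Fzd2 was the higher of the pair in the other 9 libraries.

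Of the other groups, Sfrp1 rose by 3.72 ± 0.21 on the log2 scale in STHdhQ111 cells (edgeR adjusted p = 4.65e-07) and was the 1 antagonist of 4 called. Dkk3, with means of 1.11 TPM in Q111-C and 0.125 in Q111-T and no overlap, was not called (-3.00 ± 1.13, edgeR adjusted p = 0.0949), but DESeq2, counts divided by 4, limma on log2(TPM + 0.1) and log2(TPM + 0.5), only the groups compared and the fits without Q7-T replicate 1 or replicate 2 called it lower. Lgr4 was at 11.9, 14.0 and 12.5 TPM in Q111-C and 6.22, 3.77 and 6.92 in Q111-T, and fell (-1.11 ± 0.24, edgeR adjusted p = 0.00665), but came to -0.97, under 2-fold, without Q111-T replicate 2. Tcf7 fell by a log2 fold change of -1.27 ± 0.33 (edgeR adjusted p = 0.0183), a call lost without Q111-C replicate 2. Tcf7l1, at 18.3, 19.7 and 18.4 TPM in Q111-C and 9.02, 8.09 and 8.29 in Q111-T, had a log2 fold change of -1.05 ± 0.28 (edgeR adjusted p = 0.0241), and this call was lost when any 1 of the 6 STHdhQ111 libraries was left out. The limma fits on TPM did not call Wnt5a, Lgr4, Tcf7 or Tcf7l1 in Q111-T vs. Q111-C, nor did the fit on log2(TPM + 0.1) call Fzd5 (1.68, limma adjusted p = 0.0534) or that on log2(TPM + 1) Wnt7b (0.94, under 2-fold), while those on log2(TPM + 0.1) and log2(TPM + 0.5) added Rspo3 and Wnt11 as higher and Lgr6 as lower. In STHdhQ7 cells Tcf7l1 was at 7.37, 2.11 and 9.34 TPM after treatment, and its log2 fold change of -1.08 ± 0.29 had an edgeR adjusted p of 0.0533. DESeq2, counts divided by 4, median-of-ratios scaling, a minimum of 1 TPM and the fit without Q7-T replicate 3 called it lower. Its interaction was 0.03 ± 0.40, not called. No co-receptor (2 of 4 at an unadjusted edgeR p under 0.05, 0 by DESeq2) and neither gene of ligand secretion (0 of 2 at an unadjusted p under 0.05, 0 by DESeq2) was called, although Lrp6 (-0.88 ± 0.20, edgeR adjusted p = 0.0106) was called lower without Q111-T replicate 3.

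**Figure D5:**
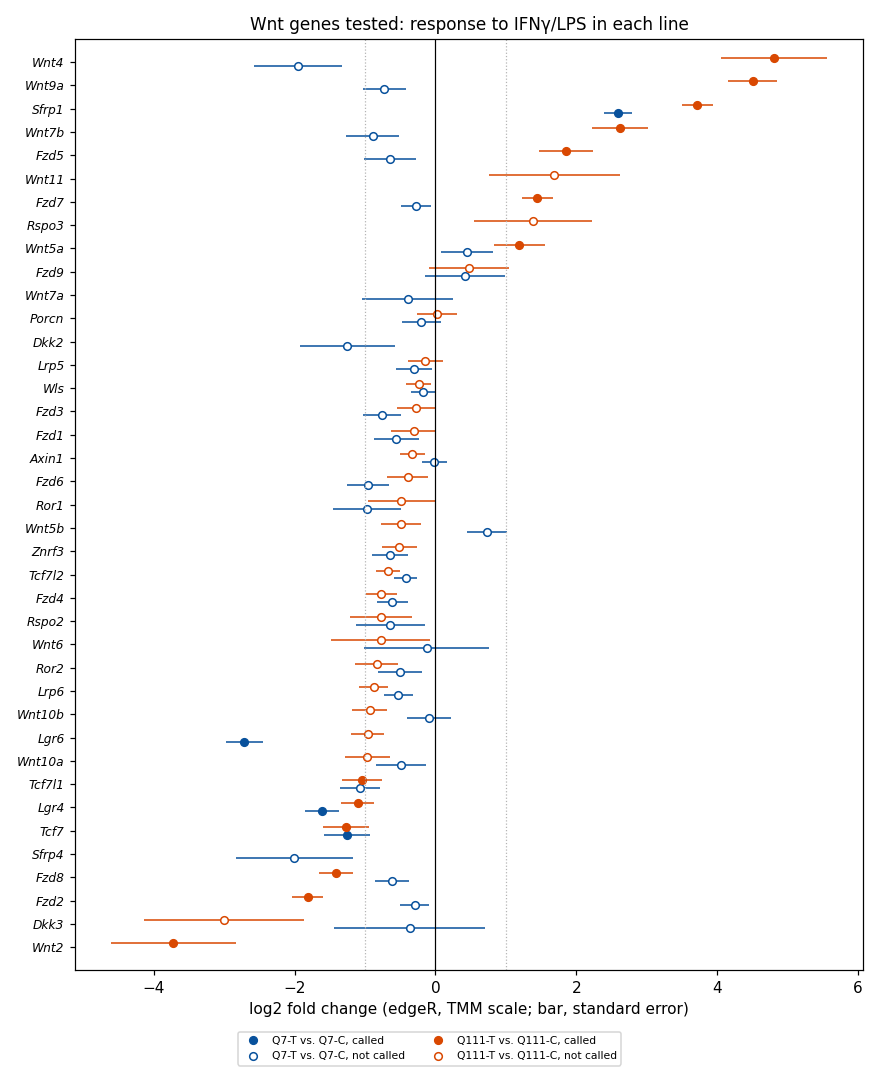
Log2 fold change on treatment with IFNγ and LPS for the Wnt genes tested, in STHdhQ7 (blue) and STHdhQ111 cells (orange), with the standard error as a bar; filled points were called. Genes not detected in 1 or both groups compared have no point. Sfrp1 rose in both lines, and Wnt9a, Wnt4, Wnt7b, Fzd5 and Fzd7 were called higher in STHdhQ111 cells, with values below 0 in STHdhQ7 cells.

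Whether the response differed between the lines was tested with the interaction term, the response in STHdhQ111 minus that in STHdhQ7 cells. It was called for 8 of the 39 Wnt genes, 7 higher and 1 lower, against 3.52% and 1.2% of all genes tested, with a median of 0.06 over the Wnt genes and -0.02 over all genes. Wnt4 (6.77 ± 0.98 on the log2 scale, edgeR adjusted p = 0.00229), Wnt9a (5.23 ± 0.45, edgeR adjusted p = 0.000172) and Wnt7b (3.51 ± 0.55, edgeR adjusted p = 0.00367) were the ligands. For these 3 ligands the response in STHdhQ7 cells was -1.96 ± 0.63, -0.72 ± 0.30 and -0.89 ± 0.38, none of which was called. The 3 interaction calls were kept in every fit, but their sizes depend on the scale. Wnt4, at most 0.15 TPM in Q111-C, came to as little as 3.30 in the alternatives and Wnt7b to 1.3. Fzd5 (2.49 ± 0.53, edgeR adjusted p = 0.0173), Fzd7 (1.73 ± 0.31, edgeR adjusted p = 0.00746) and Fzd2 (-1.52 ± 0.30, edgeR adjusted p = 0.0124) were the receptors, of which Fzd5 was lost in 4 of the 12 fits without 1 library and with limma on log2(TPM + 0.1). The Fzd7 call was lost with limma on log2(TPM + 0.1) and log2(TPM + 0.5), with adjusted p of 0.0745 and 0.0511. Lgr6 had an interaction of 1.75 ± 0.35 (edgeR adjusted p = 0.0126), with responses of -2.72 ± 0.26 in STHdhQ7 and -0.97 ± 0.24 in STHdhQ111 cells, but was not called with limma on log2(TPM + 0.5) (0.83, adjusted p = 0.103) or log2(TPM + 1) (0.41, adjusted p = 0.388). Sfrp1 had one of 1.13 ± 0.27 (edgeR adjusted p = 0.034), which was lost in 9 of the 12 fits without 1 library and turned to -0.27 with limma on log2(TPM + 1), so its direction depends on the scale. Neither Wnt10a (-0.48 ± 0.48, edgeR adjusted p = 0.637) nor Wnt10b (-0.84 ± 0.40, edgeR adjusted p = 0.275) had a called interaction. Genes added by alternatives were Wnt5b (lower, DESeq2) and, with limma on log2(TPM + 0.5) and log2(TPM + 1), Wnt2 (lower) and Wnt11 (higher).

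The 18 Wnt genes below the filter were Axin2, Dkk1, Dkk4, Lef1, Lgr5, Nkd1, Nkd2, Rnf43, Rspo1, Rspo4, Sfrp2, Sfrp5, Wif1, Wnt1, Wnt16, Wnt2b, Wnt3 and Wnt3a. None exceeded the 0.964 TPM of Lef1 in 1 Q7-C library. Lef1, a TCF/LEF factor and itself a target of the pathway, was at 0.964, 0.489 and 0.732 TPM in Q7-C and 0.49, 0.138 and 0.355 in Q7-T, against 0.0426, 0.111 and 0.102 in Q111-C and 0.0269, 0.0137 and 0.0732 in Q111-T. In an edgeR fit without the filter Lef1 was lower in Q111-C (-3.44 ± 0.62, adjusted p = 0.00214) and in Q111-T (-3.44 ± 0.64, adjusted p = 0.00185) than in the STHdhQ7 group of the same treatment. Axin2, a widely used readout of β-catenin signalling, was at 0.0641, 0.0487 and 0.136 TPM in Q7-C and 0.276, 0.31 and 0.371 in Q111-C, and its log2 fold change of 1.63 ± 0.68 in that fit was not called (edgeR adjusted p = 0.182). Nkd2, an antagonist induced by the pathway, was lower in Q111-T than in Q7-T in that fit (-1.62 ± 0.43, edgeR adjusted p = 0.0172). Wnt16 was at 0.58, 0.455 and 0.569 TPM in Q111-C and at most 0.0605 in the other 9 libraries.

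The fit of the 16127 genes tested also covered 6 further lists of pathway genes, with 71 genes tested in all. In Q111-C vs. Q7-C, 7 were higher and 13 lower, against 7.62% and 7.61% of all genes, and in Q111-T vs. Q7-T, 12 were higher and 13 lower, against 13.3% and 11.2%. The 20 calls between nontreated lines came to 12 with limma on log2(TPM + 1). Treatment raised none and lowered 5 in STHdhQ7 cells, against 2.93% and 1.11% of all genes, and the 5 came to 1 with only the groups compared and to 3 without Q7-C replicate 2 or with limma on log2(TPM + 0.1). In STHdhQ111 cells it raised 4 and lowered 5, against 8.28% and 2.96%. The interaction was called for 5 higher and 1 lower, against 3.52% and 1.2%, and for 11 genes with DESeq2. Of the 12 genes of the complex that degrades β-catenin and its regulators, none was called between nontreated lines (2 of 12 at an unadjusted edgeR p under 0.05, 0 by DESeq2), and in the treated lines Apc2 was higher in STHdhQ111 cells (1.83 ± 0.27, edgeR adjusted p = 0.000311). Of the 13 genes around Dishevelled, 4 were lower in Q111-C, among them the Dishevelled-binding Dact1 (-2.89 ± 0.60) and Dact2 (-2.40 ± 0.21) and the β-catenin inhibitor Ctnnbip1 (-1.51 ± 0.16), with edgeR adjusted p of at most 0.0043. Of the 13 nuclear cofactors, 2 were higher in Q111-C, the Groucho family member Tle6 (1.68 ± 0.22, edgeR adjusted p = 0.000165) and Pygo1 (1.11 ± 0.27, edgeR adjusted p = 0.0106).

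Of the 7 other modulators tested, 3 were lower in Q111-C: Trabd2b, a protease that inactivates Wnt proteins (-3.49 ± 0.25, edgeR adjusted p = 2.06e-06), the glypican Gpc6 (-1.86 ± 0.24, edgeR adjusted p = 0.000151) and the Wnt inhibitor Apcdd1 (-1.46 ± 0.23, edgeR adjusted p = 0.000641). Apcdd1 also fell on treatment, by -1.55 ± 0.23 in STHdhQ7 (edgeR adjusted p = 0.00131) and -1.61 ± 0.23 in STHdhQ111 cells (edgeR adjusted p = 0.000445). Of the 12 co-receptor and planar polarity genes, 2 were higher and 3 lower in Q111-C, with Celsr2 (-5.21 ± 0.55, edgeR adjusted p = 3.57e-05) the farthest from 0. Of 14 further target genes, 3 were higher and 3 lower in Q111-C. Ccnd1, the cell cycle gene for cyclin D1, had means of 195 ± 55.4 TPM in Q7-C and 28.7 ± 2.17 in Q111-C (SD, n = 3 each; log2 fold change -3.05 ± 0.20, edgeR adjusted p = 1.06e-06), Bmp4 was lower (-2.55 ± 0.32, edgeR adjusted p = 0.000134) and Tnfrsf19 higher (2.69 ± 0.25, edgeR adjusted p = 1.36e-05). On treatment of STHdhQ111 cells 4 target genes rose and 2 fell, among them Ccn5 (-3.04 ± 0.27, edgeR adjusted p = 1.08e-05) and Fosl1 (2.69 ± 0.22, edgeR adjusted p = 5.67e-06). Ascl2, not detected in Q111-C (0.0648 ± 0.0355 TPM), was at 3.90 ± 0.96 TPM in Q111-T (SD, n = 3 each), at least 18.8-fold higher (edgeR adjusted p = 0.000311). Ccnd1 and Fosl1 are also controlled by other pathways, so these values are levels of genes on a list and no measure of Wnt signalling.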

How the data were processed

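Poly(A) RNA of 12 samples was sequenced as stranded paired-end libraries. According to the study's methods and processing notes, the authors trimmed reads with Cutadapt, mapped them with HISAT2 to GRCm38 and estimated expression with StringTie. The authors deposited TPM and, beside it, estimated counts with no normalization; the strand setting is not given in the sources used here. No column was without a sample. Of the 57 Wnt genes, all are in GENCODE M21, 53 with the same start and end, and 10 share exonic bases with a gene on the opposite strand (Axin2, Wnt11, Rspo3, Wnt5a, Fzd6, Wnt7b, Lef1, Sfrp2, Fzd5 and Tcf7l1), whose reads may not be told apart. No 2 replicates agreed within sampling noise.

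Counts were rounded, scaled by TMM and tested with edgeR 4.0.16 (R 4.3.3; quasi-likelihood, 1 mean per group, all 12 libraries in 1 fit) over genes that reached 0.5 TPM in 3 or more libraries. A call was a Benjamini-Hochberg adjusted p under 0.05 over all 16127 genes and a change of 2-fold or more either way. Standard errors came from the F statistic. Low counts fell on multiples of 4 between 1.21 and 1.56 times as often as on neighbouring even numbers, so 1 read pair was taken as 4 counts. A gene at or under 12 counts in every library of a group was called not detected, and its fold is a lower bound against 12 counts at that group's mean library total. These limits cover counting error only. With such genes at their bounds, and those lacking in both groups left out, the median log2 fold changes of the Wnt genes in the 4 pairwise comparisons were the same. TPM and TMM scales differ: the median gene lay 0.27 higher in Q111-C and 0.34 higher in Q111-T than in the STHdhQ7 group of the same treatment, and 0.16 lower in Q7-T and 0.10 lower in Q111-T than in nontreated cells, on log2(TPM + 0.5), against at most 0.03 in size after TMM.

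The Wnt genes and all lists were chosen with earlier results of these data known. Every gene matched is accounted for; genes called in any test are given by library, and at most 3 called genes per further list and comparison are named. Exact two-sided permutation tests of TPM cannot go below p = 0.1 with 3 libraries against 3, and are not used for calls. Alternatives were DESeq2 1.42.0, median-of-ratios scaling, counts divided by 4, no filter, a minimum of 1 TPM, only the groups compared, a replicate block, each library left out, and limma 3.58.1 on log2(TPM + 0.1, 0.5 or 1). The procedure was tested on simulated data.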

Additional observations from a re-analysis of the deposited data

Results flagged for a closer look

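The response to IFNγ and LPS differed between the cell lines, by the edgeR test of the interaction, for 8 of the 39 Wnt genes tested, 7 higher and 1 lower, against 3.52% and 1.2% of all genes tested. The response in STHdhQ111 minus that in STHdhQ7 cells, on the log2 scale, was 6.77 for Wnt4, 5.23 for Wnt9a, 3.51 for Wnt7b, 2.49 for Fzd5, 1.75 for Lgr6, 1.73 for Fzd7, 1.13 for Sfrp1 and -1.52 for Fzd2. Wnt4, at most 0.15 TPM in Q111-C, kept its call in every fit, but its value came to as little as 3.30 in the alternatives. That of Wnt7b, also kept, came to as little as 1.3. The Sfrp1 call was lost in 9 of the 12 fits without 1 library and its value turned to -0.27 with limma on log2(TPM + 1), the Fzd5 call was lost in 4 of the 12, and Lgr6 came to 0.41, not called, with limma on log2(TPM + 1). The Fzd7 call was lost with limma on log2(TPM + 0.1) and log2(TPM + 0.5), and the Fzd5 call with the former. Groups of 3 libraries are too small for the check for a single outlying library.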

How the results depend on the processing

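The Wnt genes gave 71 calls, a call being a gene in a comparison, and 44 of them were kept in every alternative and every fit without 1 library. DESeq2, counts divided by 4 and median-of-ratios scaling lost none of the 71. The limma fits on log2(TPM + 0.1), log2(TPM + 0.5) and log2(TPM + 1) lost 14, 17 and 19, and with log2(TPM + 1) the Sfrp1 interaction turned to -0.27. A minimum of 1 TPM lost none of the 67 calls it tested. No filter lost 3, and using only the groups compared, which gives no interaction, lost 2 of 63. Genes lower in Q111-C vs. Q7-C came to 6 with log2(TPM + 1), and genes lower in Q111-T vs. Q7-T to 5 with log2(TPM + 0.5) and 5 with log2(TPM + 1). Genes lowered by treatment in STHdhQ7 cells came to 7 with DESeq2 (adding Sfrp4, Tcf7l1, Wnt2 and Wnt4), 6 with counts divided by 4 and 5 with log2(TPM + 0.1). Interactions came to 4 higher with log2(TPM + 0.1), and to 2 lower with DESeq2, log2(TPM + 0.5) and log2(TPM + 1). The causes of these shifts were not tested. Leaving out 1 library at a time lost 48 of 852 calls. The counts then spanned 11 to 12 higher and 11 to 12 lower in Q111-C vs. Q7-C, 12 to 15 and 9 to 11 in Q111-T vs. Q7-T, 1 and 2 to 4 in Q7-T vs. Q7-C, 6 to 7 and 4 to 7 in Q111-T vs. Q111-C, and 5 to 7 and 1 in the interaction. Same-numbered libraries correlated between -0.42 and 0.30 in their deviations from the group means (18 pairs), and 1 of 12 libraries correlated best with its own number, so the numbers were not taken as pairs. The fit with the replicate block gave 12 higher and 11 lower, 13 and 10, 1 and 2, 6 and 6, and 6 and 1 in the same order of comparisons, losing 3 of 71 calls. Genes near 1 TPM or below are limited by depth.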
